A study of Drosophila melanogaster with 18 samples.

Results

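The regions described here are the DRIP-seq regions of Drosophila melanogaster chromosome arm 3L. A region was a member if the authors' deposited tables placed it on 3L with a midpoint before 22.5 Mb on genome build dm3. The tables, 1 for each cell group, listed 72 such regions of 2980 in the hrp36 table, 223 of 7735 in the hrp48 table and 695 of 6477 in the LacZ table, which is 990 of 17192 in all.

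Genomic DNA was taken from S2 cells, an embryonic Drosophila line. Cells carried a knockdown of hrp36, a knockdown of hrp48, or the LacZ control, named after a gene of bacteria. There were 2 RNH+ and 2 RNH- libraries per cell group, taken to be S9.6 precipitates with and without RNase H treatment. The 6 input libraries were not analysed here. The labels name no other allele or agent, give no time of knockdown, and add a cell type entry that speaks of a primary culture although the cell line is S2. The level of each knockdown was not analysed here.

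An R-loop forms when RNA pairs with 1 strand of the DNA duplex and displaces the other. The S9.6 antibody binds such RNA-DNA hybrids, and RNase H degrades their RNA strand, so that hybrid signal is lower after the enzyme. hrp36 and hrp48 are hnRNP proteins, which coat nascent RNA and take part in its splicing and transport.

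Each table gave, for every region, a shrunken log2 fold change of RNH+ over RNH- in its own cell group, its standard error (SE), an adjusted p, and a mean level in each of the 6 groups of S9.6 libraries on a log2 scale of normalised reads. Values per library were not used here, so the depth of each library is unknown and no spread between libraries can be given beyond the authors' SE. Nothing states that the 2 libraries of a group came from separate cultures, so the p-values measure only how far these libraries differed, possibly for technical reasons. Region names show that each table listed regions found in that cell group's own RNH- libraries, which favours high RNH- levels in that group. Levels were normalised between libraries by a method that was not given in the sources used here, so a change common to all regions may not appear.

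The border at 22.5 Mb fell in a gap between listed regions. The last member and the first region beyond it were at -0.51 (chr3L:22098153-22098949) and -0.27 (chr3L:22548931-22556318), as log2 fold changes of the authors' deposited hrp36 table. The other tables had their own regions at the border. In the authors' deposited hrp48 table these were chr3L:22235973-22236302, at 0.54, and chr3L:22549017-22549710, at 0.57. In the authors' deposited LacZ table they were chr3L:22235949-22236314, at 0.33, and chr3L:22548984-22549709, at 0.31. None of these 6 regions passed the threshold, so the border separated no called region from its neighbour.

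The first comparison asked at which 3L regions the S9.6 signal was lower with RNase H, the part of the signal that a hybrid should give. A region was called where the authors' adjusted p was under 0.05. In hrp36 cells, 24 of the 72 regions fell and 2 rose in the authors' deposited table, against 44.9% and 5.34% of all regions of that table (50.2% either way). In hrp48 cells, 8 of the 223 regions fell and 37 rose in the authors' deposited table, against 44.6% and 5.71% of all (50.3% either way). In LacZ cells, 56 of the 695 regions fell and 22 rose in the authors' deposited table, against 9.79% and 4.88% of all (14.7% either way).

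Set against the other 4 large arms (2L, 2R, 3R and X, without their ends near the centromere), 3L had nearly the same shares. In hrp36 cells 33.3% of 3L regions and 33.0% of regions on the other arms fell. In hrp48 cells 3.59% of 3L regions fell, against 3.83% on the other arms, and 16.6% rose, against 15.8%. In LacZ cells 8.06% fell on 3L and 8.46% on the other arms, and 3.17% rose on 3L, against 3.83%. The shares of calls on 3L were thus near those of the other arms.

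The medians of the log2 fold change had the same order. They were -0.56 (quartiles -1.24 and -0.11) over the 72 hrp36 regions, 0.22 (-0.14 and 0.60) over the 223 hrp48 regions and -0.06 (-0.43 and 0.26) over the 695 LacZ regions in the authors' deposited tables. The same medians were -0.62, 0.24 and -0.09 over the other arms. The median SE of a single 3L region was 0.34 in each table, so a region of median response lay within 2 SE of 0 in every cell group. The split between falls and rises depended on where the zero of the fold change was set. With each table centred on the median of its regions on the 5 arms (-0.61, 0.24 and -0.09) and a Wald test on the authors' values, 13 hrp36 regions were lower and 11 higher, 23 hrp48 regions lower and 17 higher, and 30 LacZ regions lower and 15 higher. The same Wald test without centring gave 27 lower and 3 higher, 10 lower and 45 higher, and 33 lower and 12 higher. The 5 arms include 3L, and the 3L medians lay near these centres. A more even split after centring therefore follows largely from the centring itself.

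**Figure D1:**
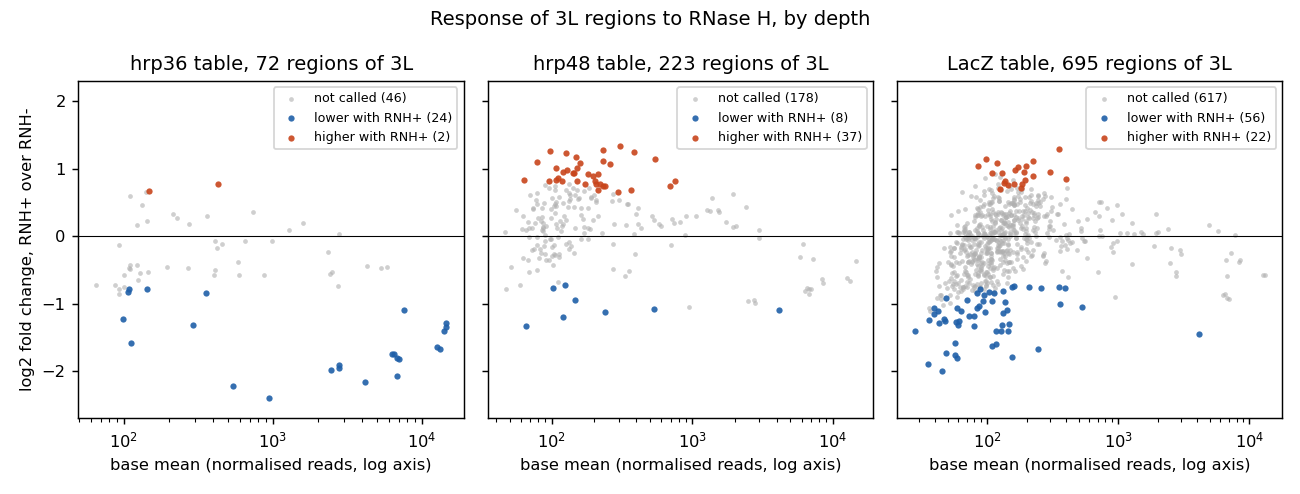
Log2 fold change of RNH+ over RNH- against base mean (log axis) for every 3L region of the hrp36, hrp48 and LacZ tables, with called falls in blue, called rises in red and other regions in grey. The 24 falls in hrp36 cells include most regions of the highest base mean, the 37 rises in hrp48 cells lie at a median base mean of 181.0, and the 56 falls in LacZ cells lie at a median of 90.1.

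The regions that fell in hrp36 cells were long and carried much signal. Their median length was 2863 bases and their median base mean, the authors' mean of normalised reads over libraries, was 3479. The 46 regions without a call had medians of 617.5 bases and 273.5 normalised reads. The 5 members of highest base mean in the hrp36 table, between 12743.5 and 14619 normalised reads, were all among the falls. Length and base mean moved together over the 72 regions (Spearman's rho 0.83), as they must for read counts over regions of unequal length.

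The largest fall in hrp36 cells was at chr3L:7370445-7371740, a region of 1296 bases. Its mean log2 level was 8.57 in hrp36 RNH+ and 11.01 in hrp36 RNH- libraries, 8.29 and 9.51 in hrp48 RNH+ and RNH- libraries, and 8.59 and 9.79 in LacZ RNH+ and RNH- libraries. The 3 RNH+ means thus lay close together, and hrp36 RNH- stood above both other RNH- means. The log2 fold change in the authors' deposited table was -2.40 (adjusted p 7.74e-06, SE 0.47), a 5.29-fold lower signal with RNase H. A second region just after it, chr3L:7372261-7373547, had levels of 10.22 in hrp36 RNH+ and 12.34 in hrp36 RNH- libraries and fell by 1.99 on the log2 scale in the authors' deposited table (adjusted p 0.000185, SE 0.46).

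Of the other large falls, chr3L:6328133-6328592 was the shortest, at 460 bases. It had levels of 7.80 in hrp36 RNH+, 10.05 in hrp36 RNH-, 7.85 in hrp48 RNH+, 9.02 in hrp48 RNH-, 7.98 in LacZ RNH+ and 9.15 in LacZ RNH- libraries. Its RNH+ mean was below its RNH- mean in each cell group, and the log2 fold change in hrp36 cells was -2.22 in the authors' deposited table (adjusted p 4.82e-07, SE 0.39). At chr3L:12950936-12955365, of 4430 bases, the levels were 10.64 in hrp36 RNH+ and 12.99 in hrp36 RNH- libraries, and the authors' deposited table gave -2.16 (adjusted p 1.67e-06, SE 0.40). At chr3L:16609641-16614958, of 5318 bases, they were 11.55 and 13.76, and the authors' deposited table gave -2.08 (adjusted p 0.000208, SE 0.48).

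Both rises in hrp36 cells lay near the threshold. At chr3L:5189588-5190422 the levels were 9.04 in hrp36 RNH+ and 8.20 in hrp36 RNH- libraries, with a log2 fold change of 0.78 in the authors' deposited table (adjusted p 0.0402, SE 0.31). At chr3L:112710-113187, which was named because it was 1 of only 2 rises, they were 7.58 and 6.87, with 0.67 in the authors' deposited table (adjusted p 0.0451, SE 0.27). Neither rise passed an adjusted p of 0.01.

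Length was then used to divide the members, a choice made with the values in view. The hrp36 table held 17 regions of 4000 bases or more on 3L, and 12 of them fell in the authors' deposited table, against 12 of the 55 shorter regions. On the other arms 55 of 88 regions of that length fell. The median log2 fold change of the 17 was -1.40. The 12 that fell spanned -2.16 to -1.10 and the other 5 spanned -0.53 to -0.23 in the authors' deposited table, with no region between.

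The 12 long falls and the other 5 long regions also stood apart in level. Their hrp36 RNH- mean exceeded the LacZ RNH- mean by 0.59 to 1.12 log2 units, while the other 5 exceeded it by 0.23 to 0.38. In the RNH+ libraries the hrp36 mean was below the LacZ mean at all 17, with differences of -0.31 to -0.12 at the 12 falls and -0.08 to -0.01 at the other 5. The hrp48 RNH- mean was also below the LacZ RNH- mean at all 17, with differences of -0.17 to -0.03 at the 12 falls and -0.34 to -0.29 at the other 5. The 2 classes did not overlap in any of these 3 differences. They were divided by the call in hrp36 cells, and several of the 12 falls belong to the sets of near-equal regions described below. All 3 differences are therefore a description. The same division was not made on the other arms. The hrp36 table lists regions found in hrp36 RNH- libraries, so a higher hrp36 RNH- level there follows in part from the listing. The hrp48 table held 10 regions of this length and there were 9 in the LacZ table, all at the places of hrp36 falls and read from the same libraries. The difference there, 0.59 to 1.12, repeats that of the 12 falls and is no separate measurement, and none of the 5 uncalled long regions is among them.

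**Figure D2:**
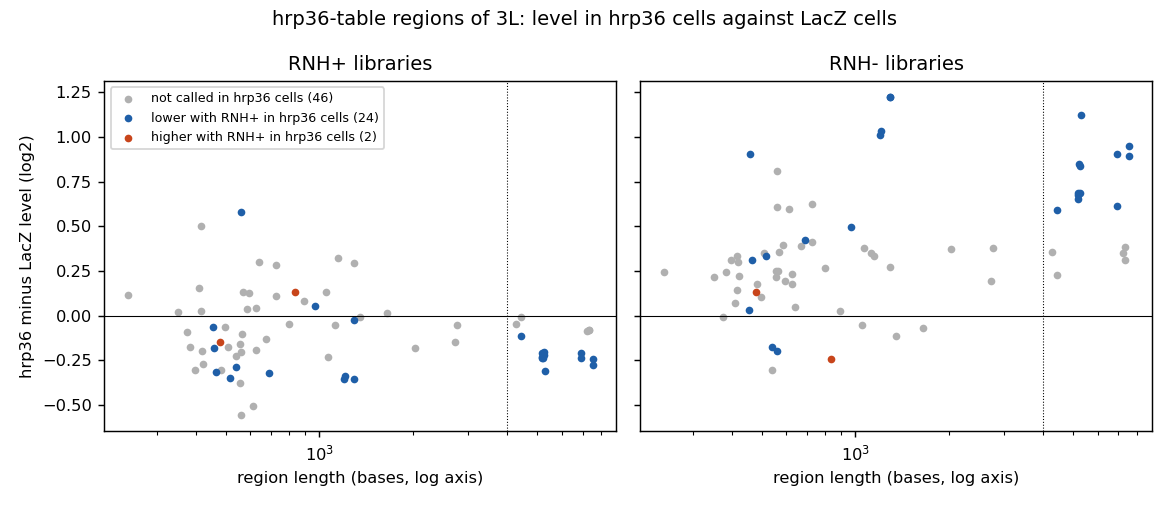
Difference of the authors' mean log2 levels, hrp36 minus LacZ, against region length (log axis) at the 72 hrp36-table regions of 3L, in RNH+ libraries on the left and RNH- libraries on the right. The dotted line marks 4000 bases. All 17 longer regions lie above 0 on the right and below 0 on the left, and the 12 called falls among them reach 0.59 or more on the right.

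Several long regions came in sets of nearly equal length and level, although they lay far apart on the arm. Members of the hrp36 table of at least 1000 bases were compared, and a set was formed where lengths differed by at most 3% and all 6 mean levels by at most 0.2 log2 units. These limits, too, were set with the values in view. Among the 31 members of that length, 12 formed 5 sets, and 10 of those 12 were called falls.

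The largest set had 4 regions, which are shown for their positions because they span most of the arm: chr3L:2108291-2113469 of 5179 bases, chr3L:3601341-3606617 of 5277 bases, chr3L:14461578-14466765 of 5188 bases and chr3L:16677154-16682341 of 5188 bases. Their levels lay between 11.60 and 11.68 in hrp36 RNH+ libraries and between 13.51 and 13.67 in hrp36 RNH- libraries. They lay between 11.80 and 11.96 in hrp48 RNH+, 12.71 and 12.85 in hrp48 RNH-, 11.80 and 11.92 in LacZ RNH+, and 12.82 and 13.02 in LacZ RNH- libraries. The 4 log2 fold changes in hrp36 cells were -1.82 to -1.75 in the authors' deposited table. The RNH+ mean was below the RNH- mean in all 3 cell groups, and the gap was widest in hrp36 cells.

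Another pair of sets formed a repeated arrangement of 2 pieces. At chr3L:402721-403919 a region of 1199 bases was followed, after 605 bases, by a region of 5230 bases at chr3L:404525-409754. At chr3L:7786842-7788046 a region of 1205 bases was followed, after 587 bases, by a region of 5250 bases at chr3L:7788634-7793883. The whole arrangement spanned 7034 and 7042 bases. In the authors' deposited table the short pieces were at -1.91 and -1.96 in log2 fold change and the long pieces at -1.68 and -1.64. The long pieces had levels of 12.79 and 12.76 in hrp36 RNH+ libraries and 14.57 and 14.51 in hrp36 RNH- libraries, and their other levels lay within the limits of the set.

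The remaining sets were pairs of longer regions. chr3L:1506036-1513611, of 7576 bases, and chr3L:10053251-10060814, of 7564 bases, had the 2 highest hrp36 RNH- levels of the arm, at 14.64 and 14.62, and both fell, at -1.40 and -1.34 in the authors' deposited table (adjusted p 0.0138 and 0.0162). chr3L:17724023-17731247 and chr3L:19110232-19117567, of 7225 and 7336 bases, were not called, with -0.48 and -0.46 in the authors' deposited table (adjusted p 0.362 and 0.369). In this last pair the RNH+ means exceeded the RNH- means in hrp48 cells, at 12.26 and 12.43 against 12.05 and 12.22.

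Regions that matched within the same limits were also found beyond 3L. Of the 31 members, 18 had such a region on another arm, among them 11 of the 16 called falls of that length. The 4 regions of the largest set had 14 or 15 matching regions each on the other arms. Whether the members of a set are copies of 1 sequence, and whether reads were placed at several of them, was not tested, since neither the genome of the files' build nor the treatment of reads with several possible places was at hand. If reads were shared, the 10 falls in these sets would not be separate measurements. The other 14 of the 24 falls lay outside these sets and spanned -2.40 to -0.78 in the authors' deposited table.

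**Figure D3:**
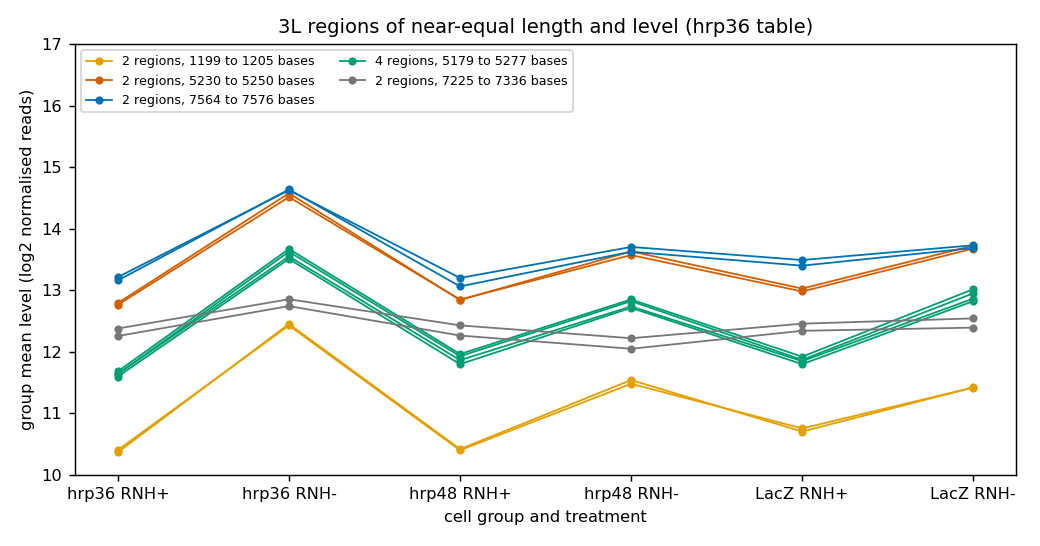
Mean log2 level in the 6 groups of S9.6 libraries, RNH+ left of RNH- for each cell group, for the 12 hrp36-table regions of 3L in 5 sets of nearly equal length and level, with 1 line per region and 1 colour per set. Lines of a set lie almost on each other, and all 5 sets have their highest level in hrp36 RNH- libraries, the uncalled set (grey) by the smallest margin.

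hrp48 cells showed the opposite direction at most called regions. The 37 rises had a median length of 376 bases, against 401 for the 178 regions without a call. Their base mean was 63.3 to 755, with a median of 181.0, and the regions without a call had a median of 134.0. The largest rise was at chr3L:3337319-3337628, with levels of 8.83 in hrp48 RNH+ and 7.39 in hrp48 RNH- libraries. Its log2 fold change was 1.34 in the authors' deposited table (adjusted p 0.000745, SE 0.32). The same region had 8.92 and 7.38 in hrp36 RNH+ and RNH- libraries and 8.55 and 7.49 in LacZ RNH+ and RNH- libraries, so its RNH+ mean was the higher in all 3 cell groups.

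Among the rises in hrp48 cells whose base mean reached the members' median of 144.8, the next had the same form. At chr3L:19564464-19564984 the levels were 8.44 in hrp48 RNH+ and 7.14 in hrp48 RNH- libraries (log2 fold change 1.27 in the authors' deposited table, adjusted p 0.0015, SE 0.32). At chr3L:5189594-5190249, the region that also rose in hrp36 cells, they were 9.21 and 7.86 (1.25 in the authors' deposited table, adjusted p 0.00147, SE 0.31). At chr3L:21000768-21000949, of 182 bases, they were 7.57 and 6.29 (1.17 in the authors' deposited table, adjusted p 0.00695, SE 0.35). At chr3L:19071682-19072504 they were 9.52 and 8.30 (1.14 in the authors' deposited table, adjusted p 0.00234, SE 0.30). The other 3 of the 8 largest by this rule, at chr3L:4447663-4448047, chr3L:7797717-7798071 and chr3L:3442366-3442741, had 1.12, 1.08 and 1.07 in the authors' deposited table. The rule left out rises of lower base mean at chr3L:17986601-17986817, chr3L:2840514-2840835 and chr3L:2068656-2068922, with 1.26, 1.23 and 1.09 in the authors' deposited table. At chr3L:17986601-17986817 the LacZ RNH+ mean was below the LacZ RNH- mean, and at the others it was above. Signal that was higher with the enzyme is not what digestion of a hybrid gives, and the normalised scale cannot tell a rise from a smaller loss than that of the other regions.

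Only 4 of the 8 falls in hrp48 cells had a base mean at or above the members' median. At chr3L:826941-827973 the levels were 7.21 in hrp48 RNH+ and 8.40 in hrp48 RNH- libraries, with a log2 fold change of -1.13 in the authors' deposited table (adjusted p 0.0026, SE 0.30). At chr3L:12950937-12955327 they were 10.99 and 12.23, with -1.09 in the authors' deposited table (adjusted p 0.0226, SE 0.40). At chr3L:6328149-6328557 and chr3L:3221777-3222583 the authors' deposited table gave -1.08 and -0.95. The first of the 4 regions also had lower RNH+ than RNH- means in hrp36 cells, at 6.36 and 8.33, and in LacZ cells, at 6.95 and 8.71.

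In LacZ cells the falls leaned to regions of lower signal, although 19 of the 56 had a base mean at or above the members' median. The median base mean of the 56 falls was 90.1, and the 617 regions without a call had 120.7. Over the 695 regions, base mean and log2 fold change had a Spearman's rho of 0.37, with 0.34 over the other arms; the rho on 3L was -0.32 in the hrp36 table and -0.00 in the hrp48 table. These values describe regions that share the same libraries and carry no p. Of the LacZ members with a base mean of at least 100, 25 fell, and their median log2 fold change was 0.05.

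Of the LacZ falls at or above the median base mean, the largest was at chr3L:5349188-5349850, with levels of 6.05 in LacZ RNH+ and 7.97 in LacZ RNH- libraries. Its log2 fold change was -1.80 in the authors' deposited table (adjusted p 8.29e-06, SE 0.33). At chr3L:826915-827969 the levels were 6.95 and 8.71 (log2 fold change -1.68 in the authors' deposited table, adjusted p 1.72e-06, SE 0.29). At chr3L:12950934-12955332 they were 10.75 and 12.39 (-1.45 in the authors' deposited table, adjusted p 0.00204, SE 0.40). The other 5 of the 8 largest falls, such as chr3L:3096277-3097062 and chr3L:3221864-3222643, both at -1.41, lay between -1.41 and -1.14 in the authors' deposited table. Except for chr3L:12950934-12955332, the 8 regions were 288 to 1055 bases long.

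The 22 rises in LacZ cells were led by chr3L:5180513-5181058, with levels of 9.11 in LacZ RNH+ and 7.75 in LacZ RNH- libraries. Its log2 fold change was 1.29 in the authors' deposited table (adjusted p 0.000476, SE 0.31). At chr3L:20910361-20910633 the levels were 8.10 and 6.91, with 1.12 in the authors' deposited table (adjusted p 0.00248, SE 0.31). The first region lay in a run of 8 LacZ regions at chr3L:5172485-5191811, all with a log2 fold change above 0 in the authors' deposited table, from 0.14 to 1.29, of which 2 rose. The region that rose in hrp36 and in hrp48 cells lies at the end of this run.

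Each table also gave the levels of the other cell groups at the same regions. The SE of a region was nearly the same in all 3 tables: over the 52 regions matched in all of them, described below, the median absolute difference of the authors' SEs was 0.0012 to 0.0015. The other groups' libraries may therefore have entered the spread behind a call, and the values that follow are a description, not an independent check of the calls. The 24 regions that fell in hrp36 cells had lower RNH+ than RNH- means in hrp48 cells at 24 of 24 (median difference -0.78) and in LacZ cells at 24 of 24 (-0.75). Over all 72 members this was so at 35 and 47. The 8 falls of hrp48 cells were lower in hrp36 and in LacZ cells at 8 of 8 each, against 117 and 135 of all 223. The 56 falls of LacZ cells were lower in hrp36 cells at 50 and in hrp48 cells at 38, against 258 and 128 of all 695.

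The rises recurred as well. The 37 rises of hrp48 cells had higher RNH+ than RNH- means in hrp36 cells at 35 (median 0.51) and in LacZ cells at 33 (0.48), against 106 and 88 of all 223. The 22 rises of LacZ cells did so at 22 of 22 in hrp36 cells (median 1.08) and 22 of 22 in hrp48 cells (1.21), against 437 and 567 of all 695. The sign of the difference in the other cell groups was thus mostly that of the call, with the exceptions counted here.

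**Figure D4:**
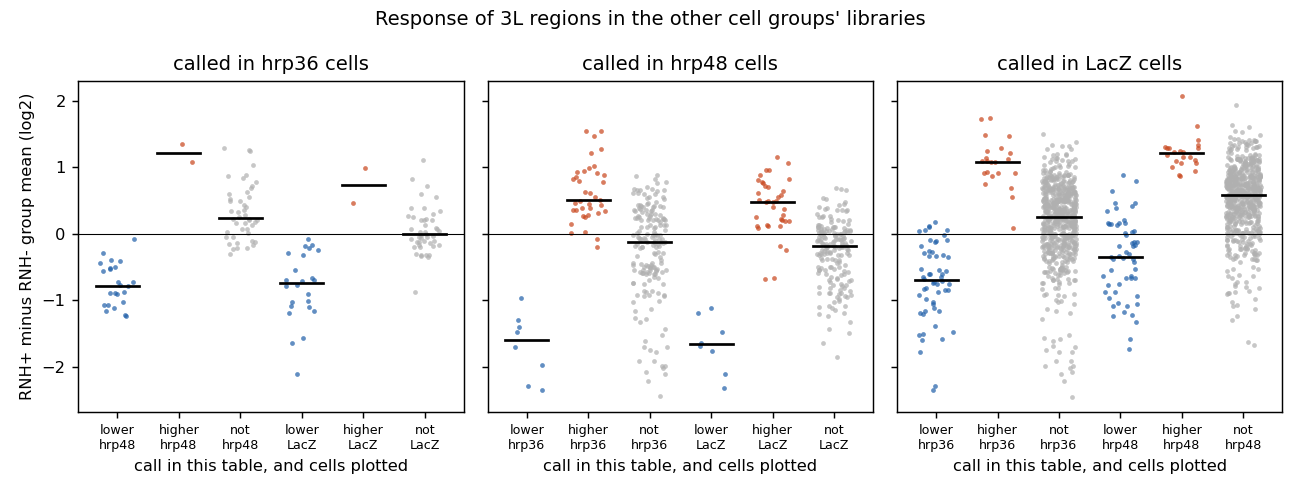
RNH+ minus RNH- mean level (log2) in the 2 other cell groups, for 3L regions that were lower, higher or not called in hrp36, hrp48 and LacZ cells, with 1 point per region and a black line at the median. Regions called lower in hrp36 cells lie below 0 in both other cell groups at 24 of 24, and the 22 rises of LacZ cells lie above 0 at 22 of 22.

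The second comparison asked whether the response differed between cell groups at the same place. Regions of different tables were matched where they overlapped by at least 1 base and each was the other's best. Of the hrp36 regions 61 matched a LacZ region, which is 84.7% of the hrp36 and 8.78% of the LacZ members. Of the hrp48 regions 197 matched a LacZ region (88.3% and 28.3%), and 58 hrp36 regions matched an hrp48 region (80.6% and 26.0%).

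No matched 3L region had a response that differed between cell groups by a Wald test on the 2 authors' fold changes and SEs at an adjusted p under 0.05. The background was as low, with 0.0924% of all 2165 matched regions for hrp36 against LacZ and 0 of 3187 and of 2363 for hrp48 against LacZ and hrp36 against hrp48. At an unadjusted p under 0.05 the same Wald test gave 8 regions of 61, all lower in hrp36 than in LacZ cells. It gave 9 of 197, all higher in hrp48 than in LacZ cells, and 2 of 58, both lower in hrp36 than in hrp48 cells. The smallest adjusted p on 3L was 0.294, 0.212 and 0.335 in these 3 comparisons.

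The differences leaned one way without passing the test. The median difference of the log2 fold change was -0.48 for hrp36 minus LacZ, with hrp36 the lower at 51 of 61, and -0.50 over the other arms. It was 0.32 for hrp48 minus LacZ, with hrp48 the lower at 39 of 197, and 0.31 over the other arms. It was -0.62 for hrp36 minus hrp48, with hrp36 the lower at 58 of 58, and -0.77 over the other arms. The median SE of a single difference was 0.47 to 0.48, so a typical difference was near 1 SE, and a common shift of this kind depends on how the libraries were scaled.

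The largest difference for hrp36 minus LacZ by p was at chr3L:20208844-20209814, where the log2 fold change was -1.32 (SE 0.37) in hrp36 cells and -0.08 (SE 0.31) in LacZ cells in the authors' deposited tables. The difference was -1.24 (SE 0.48, adjusted p 0.294 by the Wald test). The matched LacZ region is a longer interval, chr3L:20208234-20209689. Over the hrp36 interval itself the levels were 7.57 in hrp36 RNH+ and 8.92 in hrp36 RNH- libraries, against 7.51 in LacZ RNH+ and 8.42 in LacZ RNH- libraries, which are differences of -1.35 and -0.91, much closer to each other. For hrp48 minus LacZ it was at chr3L:17986601-17986817, with 1.26 (SE 0.34) in hrp48 cells and -0.66 (SE 0.34) in LacZ cells in the authors' deposited tables, a difference of 1.92 (SE 0.48, adjusted p 0.212 by the Wald test). Its levels were 7.48 in hrp48 RNH+ and 6.18 in hrp48 RNH- libraries, against 6.08 in LacZ RNH+ and 6.79 in LacZ RNH- libraries. Both regions were listed because they had the smallest p of their comparison.

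No matched 3L region was called in opposite directions. Over all matched regions, opposite calls numbered 0 for hrp36 and LacZ, 0 for hrp48 and LacZ, and 1 for hrp36 and hrp48 cells. Shared falls of hrp36 and LacZ cells numbered 5 (20.8% of the hrp36 falls and 8.93% of the LacZ falls), those of hrp48 and LacZ cells 7 (87.5% and 12.5%), and those of hrp36 and hrp48 cells 3 (12.5% and 37.5%). Over all regions of the tables the same shares were 21.4% and 45.3%, 6.37% and 34.7%, and 32.0% and 12.4%. Many calls had no matched region in the other table: 6 of the 56 LacZ falls matched an hrp36 region, and 5 of those 6 fell there, while 7 of the 8 hrp48 falls matched a LacZ region and each of the 7 fell there. Shared rises numbered 0, 4 and 1 in the same pairs. As shares of the rises of the first and second cell group these were 0% and 0%, 10.8% and 18.2%, and 50% and 2.70%. Over all regions of the tables the shares of rises were 23.3% and 11.7%, 27.8% and 38.9%, and 30.8% and 11.1%.

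All 3 tables listed 52 matched regions, and 3 of them fell in every cell group. At chr3L:12950936-12955365 the log2 fold change was -2.16 in hrp36, -1.09 in hrp48 and -1.45 in LacZ cells in the authors' deposited tables (adjusted p 1.67e-06, 0.0226 and 0.00204). At chr3L:6328133-6328592 it was -2.22, -1.08 and -1.06 in the authors' deposited tables (adjusted p 4.82e-07, 0.0227 and 0.0235). At chr3L:1397948-1398505 it was -1.23, -0.77 and -1.63 in the authors' deposited tables (adjusted p 0.00152, 0.0488 and 6.34e-05), and there the fall was largest in LacZ cells. This last region is short and of low signal, with levels of 5.78 in hrp36 RNH+, 7.11 in hrp36 RNH-, 6.28 in hrp48 RNH+, 7.06 in hrp48 RNH-, 5.20 in LacZ RNH+ and 7.31 in LacZ RNH- libraries. No region rose in all 3, and 22 of the 52 were called in none. The counts over these 52 regions, here and below, were not taken over the other arms or all regions. They therefore do not show whether 3L differed from the rest.

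Over the 52 regions the fold change was lowest in hrp36 cells at 42. The medians were -0.62 in hrp36, -0.18 in hrp48 and -0.21 in LacZ cells in the authors' deposited tables. At chr3L:14461578-14466765, of the set of 4 described above, it was -1.82 in hrp36, -0.78 in hrp48 and -0.93 in LacZ cells in the authors' deposited tables, with an adjusted p of 0.126 and 0.072 in the last 2.

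The third comparison set the levels of knockdown cells against those of LacZ cells, with no test, since only group means were given. The outcome depended on the table that listed the regions. The median hrp36 minus LacZ difference in RNH- libraries was 0.34 over the 72 hrp36-table regions (higher at 64), -0.22 over the 223 hrp48-table regions (higher at 72) and -0.32 over the 695 LacZ-table regions (higher at 97). Over the other arms the 3 medians were 0.43, -0.13 and -0.31. Over all regions they were 0.50, 0.60 (higher at 6447 of 7735) and -0.14, so the hrp48-table value had the opposite sign on the arms. The hrp48 table was listed from neither of these 2 cell groups. In RNH+ libraries the same 3 medians on 3L were -0.14, -0.04 and 0.03.

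On 3L, hrp48 cells had lower RNH- means than LacZ cells whichever table listed the regions. The median hrp48 minus LacZ difference was -0.37 over the hrp48 table (higher at 6 of 223), -0.23 over the hrp36 table (higher at 7 of 72) and -0.49 over the LacZ table (higher at 8 of 695). The other arms had -0.35, -0.26 and -0.48. All regions had 0.45 over the hrp48 table (higher at 4835 of 7735), the opposite sign, and -0.15 and -0.38 over the hrp36 and LacZ tables. In RNH+ libraries the 3L medians were 0.05, -0.04 and 0.12. The low hrp48 RNH- means thus stood beside RNH+ means close to those of LacZ cells, and these 2 levels make up the positive fold changes in hrp48 cells.

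The medians of all 6 levels show the same. Over the 695 LacZ-table regions they were 7.003 in hrp36 RNH+, 6.65 in hrp36 RNH-, 7.11 in hrp48 RNH+, 6.49 in hrp48 RNH-, 6.94 in LacZ RNH+ and 6.999 in LacZ RNH- libraries. Over the 72 hrp36-table regions they were 8.61, 8.96, 8.68, 8.47, 8.56 and 8.77 in the same order. Over the 223 hrp48-table regions they were 7.22, 7.13, 7.36, 6.91, 7.28 and 7.32. The RNH+ medians of the 3 cell groups spanned 0.12 to 0.16 log2 units in the 3 tables, and the RNH- medians spanned 0.42 to 0.51.

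Along the arm the number of listed regions varied from bin to bin. In 9 bins of 2.5 Mb from the start of the arm, the LacZ table had 42.0, 63.6, 36.8, 22.4, 14.0, 15.6, 22.4, 35.2 and 26.0 regions per Mb. The hrp48 table had 12.8, 22.8, 14.0, 7.2, 3.2, 4.4, 4.0, 10.4 and 10.4 regions per Mb. Both were densest in the second bin, from 2.5 to 5 Mb, and sparsest in the fifth, from 10 to 12.5 Mb. The hrp36 table had 1.2 to 5.2 regions per Mb, with the most in the last bin and the fewest in the fifth.

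In the hrp48 and LacZ tables the bin median of the response was highest in the densest bin and lowest in the sparsest. The bin medians of the log2 fold change were -1.30 to -0.38 in the hrp36 table, below 0 in 9 of 9 bins, but rested on 3 to 13 regions each. They were -0.08 to 0.42 in the hrp48 table, above 0 in 8 of 9 bins, and -0.32 to 0.01 in the LacZ table, below 0 in 8 of 9. The fifth bin had the lowest median of the hrp48 and LacZ tables, with 8 and 35 regions. The second bin had the highest, with 57 and 159 regions. In both tables the quartile ranges of these bins overlapped, and whether the response followed density was not tested. Position and fold change had a Spearman's rho of 0.17, 0.04 and -0.05 over the 72, 223 and 695 regions, given as a description of regions from shared libraries. Such a rho does not show a dip within the arm. Falls occurred in 9 of 9 bins in hrp36 and in LacZ cells, and in 4 of 9 in hrp48 cells, where rises occurred in 9 of 9.

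Over the LacZ table each of the 6 levels had its lowest bin median in the fifth or sixth bin. Their courses were not the same throughout. The LacZ RNH+ median was above the LacZ RNH- median in the eighth bin (6.97 against 6.78) and the ninth (7.19 against 7.03), and below it in the others. Over the LacZ table the bin medians were 6.61 to 7.14 in hrp36 RNH+, 6.29 to 6.85 in hrp36 RNH-, 6.66 to 7.37 in hrp48 RNH+, 6.12 to 6.58 in hrp48 RNH-, 6.44 to 7.19 in LacZ RNH+ and 6.68 to 7.12 in LacZ RNH- libraries. The hrp48 RNH- median was the lowest of the 6 in each of the 9 bins. In the hrp36 table the bin medians ran up to 14.61 in hrp36 RNH- libraries, in the fifth bin, where 2 of the 3 regions were long falls.

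**Figure D5:**
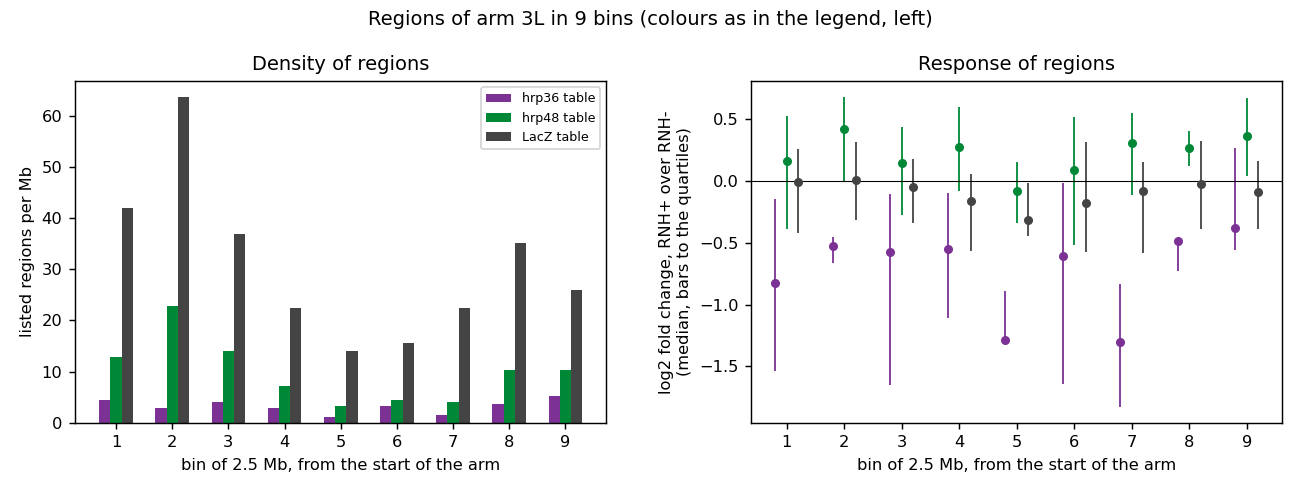
Listed regions per Mb (left, bars from 0) and log2 fold change of RNH+ over RNH- (right, median with bars to the quartiles) in 9 bins of 2.5 Mb along 3L, for the hrp36, hrp48 and LacZ tables. Density is highest in bin 2 for the hrp48 and LacZ tables, at 22.8 and 63.6 regions per Mb, while the medians stay below 0 in every bin for the hrp36 table and above 0 in 8 of 9 for the hrp48 table.

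Regions of a table less than 10 kb apart were joined to runs. Of the 72 hrp36 regions 37 lay in 15 runs, of the 223 hrp48 regions 108 lay in 40 runs, and of the 695 LacZ regions 468, or 67.3%, lay in 134 runs. The largest runs were in the LacZ table, with 15 regions at chr3L:3477890-3536877, 12 at chr3L:5245666-5300731 and 11 at chr3L:7786861-7833377. The first 2 held no called region, with log2 fold changes of -0.74 to 0.61 and -1.02 to 0.51 in the authors' deposited table. The third held 1 fall and 1 rise, and it starts with the 2-piece arrangement described above.

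The largest hrp36 run held 5 regions at chr3L:5106434-5114213, with no call and log2 fold changes of -0.58 to 0.09 in the authors' deposited table. The hrp48 table had 2 runs of 5, at chr3L:5189594-5210608 and chr3L:8482552-8498841, with 1 rise each. Neighbours less than 10 kb apart had a Spearman's rho of the log2 fold change of 0.43 over 22 pairs in the hrp36 table, 0.29 over 68 in the hrp48 table and 0.08 over 334 in the LacZ table. Neighbours farther apart had 0.08, 0.01 and -0.13. These are descriptions of pairs from the same libraries, and overlap of the sequenced fragments between close neighbours was not tested.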

How the data were processed

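S9.6 and input libraries of S2 cells with a knockdown of hrp36, of hrp48 or with LacZ control were grouped by the labels' titles, 2 libraries in each of 9 groups. The submitters' processing notes name the build dm3 and the tools DESeq2, MACS 1.4.2 and Bowtie2 2.2.2. Their settings, the treatment of reads with several places, and whether regions were called on pooled libraries were not given in the sources used here. Per the file headers, the authors deposited log2 group means in 6 columns, a base mean (a normalised signal per region), a shrunken log2 fold change with its SE, a p-value with its adjusted form, and 2 further columns, a statistic and a call score of -1, 0 or 1. Columns ending in Un and Tr were read as RNH- and RNH+. The call score equalled an adjusted p under 0.1 in every row, and the mean of the back-transformed levels, with a pseudocount of 1, exceeded the base mean in 0 rows of any table. The set of regions over which the authors adjusted their p-values was not given in the sources used here.

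Members were chosen by arm and midpoint. The members and lists were chosen with earlier results of these data known. Calls use the adjusted p of the authors' DESeq2 fit at 0.05. Responses of 2 tables were compared by a Wald statistic from both SEs, normal approximation, two-sided, with Benjamini-Hochberg adjustment over all matched regions; the script was tested on simulated data. It takes the 2 SEs as separate, although they were nearly equal between tables and may come from 1 fit. The other arms exclude 2L and X beyond 22 Mb, 2R before 1.3 Mb and 3R before 0.4 Mb. Regions were named by rule: in each table the 8 largest falls and 8 largest rises among calls whose base mean reached the members' median, the 5 highest base means, regions called in all 3 tables or in opposite directions, those at the border, and the 3 largest runs; others named are said to be chosen for their values or belong to a set or run described. The 4000-base class, the sets of near-equal regions and the levels at the remaining table were added after the data were seen. No gene is named and no sequence is shown, since no annotation or genome of dm3 was used here. The work used SciPy 1.17.1, pandas 2.3.3 and NumPy 2.4.6 under Python 3.11.15, with figures by Matplotlib 3.10.9.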

Additional observations from a re-analysis of the deposited data

How the results depend on the processing

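Of 82 alternative settings, 51 left the result close to its value and in the same direction, 25 moved it and 6 reversed it. At an adjusted p under 0.01, 0 regions rose in hrp36 cells, 3 fell and 12 rose in hrp48 cells, and 30 fell and 7 rose in LacZ cells. At an adjusted p under 0.1, 14 fell in hrp48 cells, and 85 fell and 41 rose in LacZ cells. With a log2 fold change of at least 1, 0 rose in hrp36 cells, 5 fell and 13 rose in hrp48 cells, and 7 rose in LacZ cells. With the Wald test and centred on the arm median, the counts were 13 lower and 11 higher in hrp36 cells, 23 lower and 17 higher in hrp48 cells, and 30 lower in LacZ cells. This setting changes both the test and the zero, and the Wald test alone, without centring, gave 27 lower and 3 higher, 10 lower and 45 higher, and 33 lower and 12 higher in the same cells. Benjamini-Hochberg adjustment of the authors' p-values over listed regions also gave 33 falls and 12 rises in LacZ cells, and why it gave fewer than the authors' adjustment was not tested. A base mean of at least 100 left 25 LacZ falls and reversed the LacZ median to 0.0505, and regions of at least 500 bases gave 0.0246. Without regions of 4000 bases or more, 12 falls remained in hrp36 cells. Over the hrp36 table the hrp36 minus LacZ median was 0.34 in RNH- and -0.14 in RNH+ libraries, and over the hrp48 table it was -0.0442 in RNH+ libraries. The hrp48 minus LacZ median in RNH+ libraries was -0.0424 over the hrp36 table. In bins of 5 Mb the densest bin exceeded the sparsest 2.36 times in the hrp36 table and 4.68 times in the hrp48 table, against 4.33 and 7.13 times in bins of 2.5 Mb. The counts of 0 in the matched Wald tests were 0 under the other overlap and the centring too. No paired analysis was possible because the tables hold only group means, and leaving out 1 replicate was not possible for the same reason. With 2 libraries a group and unknown depth, a median SE of 0.34 limits what a single region can show.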
